A study of Mus musculus with 2 samples.

Results

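The S100 genes of 2 mouse pancreatic tumors were followed across cell types by single-cell RNA sequencing. The set held 10 of the 32285 genes in the deposited matrices and was chosen by symbol: S100a1, S100a4, S100a6, S100a8, S100a9, S100a10, S100a11, S100a13, S100a14 and S100a16. A further 7 S100 genes were present in the matrices (S100a2, S100a3, S100a5, S100a7a, S100b, S100g and S100z) and are given once for comparison. The tumors grew from KPC cells, a mouse pancreatic cancer line, injected into the pancreas. KPC-shV cells carried the control vector and KPC-shZEB1 cells a short hairpin RNA directed at Zeb1, so only the injected cancer cells were modified and not the host. By the study's account the hosts were immunocompetent and both tumors came from mice given the cytotoxic drug gemcitabine, which the labels do not mention. The labels give no strain or age. Each group was 1 tumor and 1 library, so no difference between groups could be tested and each one is a difference between 2 libraries.

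S100 proteins are small EF-hand calcium-binding proteins that mostly work as dimers and change shape when they bind calcium. S100A8 and S100A9 form calprotectin, an abundant protein of the neutrophil cytosol that sequesters zinc and manganese and signals through TLR4 and RAGE when released. S100A10 has lost calcium binding and pairs with annexin A2 at membranes, S100A4 binds nonmuscle myosin in motile cells, and S100A6, S100A11, S100A13, S100A14 and S100A16 serve mainly inside epithelial, stromal and other cells.

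All 10 genes lie on mouse chromosome 3 (GRCm38 coordinates, GENCODE annotation), in the conserved S100 gene cluster. A stretch of 184.7 kb held 8 of them, from S100a1 (90511034 to 90514392, minus strand) past S100a13, S100a14, S100a16, S100a4 and S100a6 (90612882 to 90624181, plus strand) to S100a8 and S100a9. S100a11 (93520488 to 93526287) and S100a10 (93555080 to 93564643), both on the plus strand, lie 2.82 Mb further on. S100a8 (ENSMUSG00000056054, 90668978 to 90670035, plus strand) and S100a9 (ENSMUSG00000056071, 90692632 to 90695721, minus strand) are 22.6 kb apart. S100a1 and S100a13 start back to back on opposite strands without overlapping, and S100a4 overlaps the gene model Gm42674 on the same strand. Their promoters are shown because S100a8 and S100a9 had nearly the same pattern over cell classes. RefSeq promoter sequence (GRCm38.p6) was matched for 8 of the 10 genes, all but S100a10 and S100a14. The lines run from 250 bases before the RefSeq start to 30 bases after it, for S100a8 at chr3:90668821-90669100 (plus strand) and for S100a9 at chr3:90695692-90695971 (minus strand). Capitals mark matches on either strand to the TATA box (TATAAA) and to a C/EBP-type motif (TTNNGNAA), which did not overlap each other here.

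S100a8: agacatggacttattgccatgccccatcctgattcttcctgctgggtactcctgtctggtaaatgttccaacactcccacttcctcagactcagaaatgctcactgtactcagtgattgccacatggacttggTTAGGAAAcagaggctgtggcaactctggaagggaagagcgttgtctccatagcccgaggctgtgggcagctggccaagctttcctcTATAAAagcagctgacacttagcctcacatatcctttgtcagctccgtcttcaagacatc
S100a9: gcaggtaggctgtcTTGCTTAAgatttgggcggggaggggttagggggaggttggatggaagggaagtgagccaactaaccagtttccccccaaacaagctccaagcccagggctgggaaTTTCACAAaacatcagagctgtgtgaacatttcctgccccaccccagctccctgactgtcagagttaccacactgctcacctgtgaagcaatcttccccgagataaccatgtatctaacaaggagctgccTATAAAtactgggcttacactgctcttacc

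Motifs were counted on both strands from 250 bases before to 50 bases after each start. A TATA box was found in 3 of the 8 matched genes, at position -30 from the start of S100a8, at 0 in S100a9 and at -31 in S100a4, and in 13.6% of all 32851 promoters in the table. The C/EBP-type motif was found 1 time in S100a8, 2 times in S100a9 and in no other matched gene of the set, and 40.7% of all promoters held it. An AP-1 motif (TGANTCA), held by 7.81% of promoters, was found 2 times in S100a11 and in 1 of the 2 promoters of S100a16, and an ETS core (AGGAAG, 35.4% of promoters) was found in S100a4, S100a8 and the same S100a16 promoter. These matches describe letters in a window and not binding.

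The libraries held 130941086 (KPC-shV) and 143461224 (KPC-shZEB1) unique molecular identifiers (UMIs, each marking 1 captured RNA molecule), and 11398 and 12104 cells passed the filters. The same barcode sequence occurred in both libraries for 46 barcodes before and 36 after filtering. Cells were clustered without the S100 genes and their partners and named from marker genes. Classes of at least 50 cells in each library were compared, with 6865 and 4319 granulocyte-like, 1622 and 2518 monocyte-macrophage-like, 1489 and 1451 tumor-like, and 361 and 381 fibroblast-like cells. In these 4 classes, every marker of the granulocyte (8), macrophage (7) and fibroblast (7) lists, and 8 of the 9 tumor markers, were higher than in the other cells of the same library. Of the 5 monocyte markers, 5 and 4 were higher in monocyte-macrophage-like cells. The same lists named the clusters, so these marker counts are not an independent check. Zeb1, the targeted gene, was not lower in the tumor-like cells of the second library, at 166.5 CPM for the KPC-shV label and 187 CPM for the KPC-shZEB1 label, a ratio of 1.12 (95% interval 1.08–1.16). Directions below therefore compare labelled libraries. CPM are UMIs per 1000000 UMIs of a class. They carry no term for gene length, since molecules were counted at their 3′ ends. Values are given for the KPC-shV library first, ratios are KPC-shZEB1 over KPC-shV, and the 95% intervals (exact Poisson for levels, exact binomial for shares and ratios) cover counting error only and not the spread between animals.

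S100a9 and S100a8 reached the highest levels of the 10 genes, in granulocyte-like cells. S100a9 reached 15281 CPM (15230–15332) and 9435 CPM (9383–9487) in these cells and S100a8 reached 9072 CPM (9033–9111) and 4796 CPM (4759–4834). Of all S100a8 UMIs in kept cells, 88.6% and 78.8% were in granulocyte-like cells, which made up 60.2% and 35.7% of the cells. Among the compared classes the next was 17.7-fold and 34.6-fold lower for S100a8. An acinar-like cluster of 21 and 288 cells, which was not compared, was at 2498 and 3779 CPM. Over all kept cells, S100a9 ranked 11th among all genes in the KPC-shV library and 77th in the KPC-shZEB1 library, and S100a8 26th and 196th.

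Before background RNA was subtracted, S100a6, S100a11 and S100a10 had a mean of at least 50 CPM in every compared class. S100a6, also called calcyclin, was highest in tumor-like cells (3522 CPM, 3502–3542, and 2809 CPM, 2792–2827) and next in fibroblast-like cells (2665 and 1874 CPM), then granulocyte-like cells (2034 and 1178 CPM). B-like cells had the least, with 824 and 379 CPM. With the estimated background RNA subtracted, B-like cells held 571 and 112 CPM of S100a6. S100a11 spanned a narrow range, from 294 and 272 CPM in B-like cells to 942 and 1099 CPM in tumor-like and 996 and 976 CPM in granulocyte-like cells. The order of its leading classes was exchanged between the libraries. S100a10 was highest in tumor-like cells (817 and 881 CPM), followed by NK-like cells (718, 637–807, and 632, 584–682, CPM), and lowest in granulocyte-like cells (119.8 and 145 CPM), a span of 6.83-fold and 6.06-fold. With the estimated background RNA subtracted, S100a10 in granulocyte-like cells was at 33.3 and 40.4 CPM and the span was 26.4-fold and 23.8-fold. Granulocyte-like cells were thus at the top for S100a8 and S100a9 and at the bottom for S100a10.

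Among the compared classes S100a4, which regulates cell motility, was highest in dendritic-like cells. Monocyte-macrophage-like and T-like cells followed and changed places between the libraries. Dendritic-like cells held 909 CPM (862–958) and 842 CPM (816–869), monocyte-macrophage-like cells 391 and 237 CPM, T-like cells 366 (343–391) and 299.7 (287–312) CPM and NK-like cells 213 and 188 CPM. Both dendritic-like clusters carried it, at 927 and 844 CPM in the one led by Cd209a and at 861 and 838 CPM in the one led by Strip2. The monocyte-like cluster led by Chil3 and Ccr2, part of the monocyte-macrophage-like class, had similar levels, at 1061 and 829 CPM. Unnamed cells led by Il17a, which were not compared, were at 740 and 732 CPM. S100a4 is also known as fibroblast-specific protein. Fibroblast-like cells held 78.3 and 97.1 CPM and tumor-like cells 75.4 and 120.2 CPM.

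By level, S100a1 leaned to fibroblast-like cells, S100a16 to fibroblast-like and endothelial-like cells and S100a14 to tumor cells. S100a13 was also highest in the stroma, with smaller gaps to the immune classes. S100a1 was highest in fibroblast-like cells, at 184 CPM (176–193) and 168 CPM (160–175), 3.50-fold and 2.59-fold above the next class. Endothelial-like cells had 25.6 and 23.2 CPM of it, less than tumor-like (49.3 and 64.8 CPM) and monocyte-macrophage-like cells (52.6 and 64.7 CPM). Its UMIs were 36.3% and 24.3% in fibroblast-like, 30.9% and 30.0% in tumor-like and 22.3% and 33.8% in monocyte-macrophage-like cells. S100a13, which takes part in the release of proteins without a signal peptide, was highest in fibroblast-like (163 and 163 CPM) and endothelial-like cells (136, 123–150, and 117, 102–134, CPM). T-like (122 and 110 CPM), NK-like (109 and 102 CPM) and monocyte-macrophage-like cells (103 and 88.6 CPM) came next. Monocyte-macrophage-like cells held 28.0% and 33.4% of its UMIs, against 20.6% and 17.1% in fibroblast-like cells. S100a16 was shared by fibroblast-like (175 and 197 CPM) and endothelial-like cells (170.2 and 178 CPM), whose intervals overlapped in both libraries (fibroblast-like 167–183 and 189–206, endothelial-like 155–186 and 159–198). Tumor-like cells had 80.4 and 91.5 CPM of S100a16, and the immune classes had 17.7 CPM or less. Of its UMIs, tumor-like cells held 48.2% and 48.2%, against 33.0% and 32.5% in fibroblast-like cells. S100a14 was at 84.4 CPM (81.4–87.5) and 74.8 CPM (72.0–77.8) in tumor-like cells, which held 84.7% and 82.3% of its UMIs. Elsewhere its level was between 4.63 and 10.2 CPM, except in B-like cells of the KPC-shV library (37.9 CPM), where 4.47% of 291 cells held all 45 UMIs and the fullest cell held 25 of them.

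**Figure D1:**
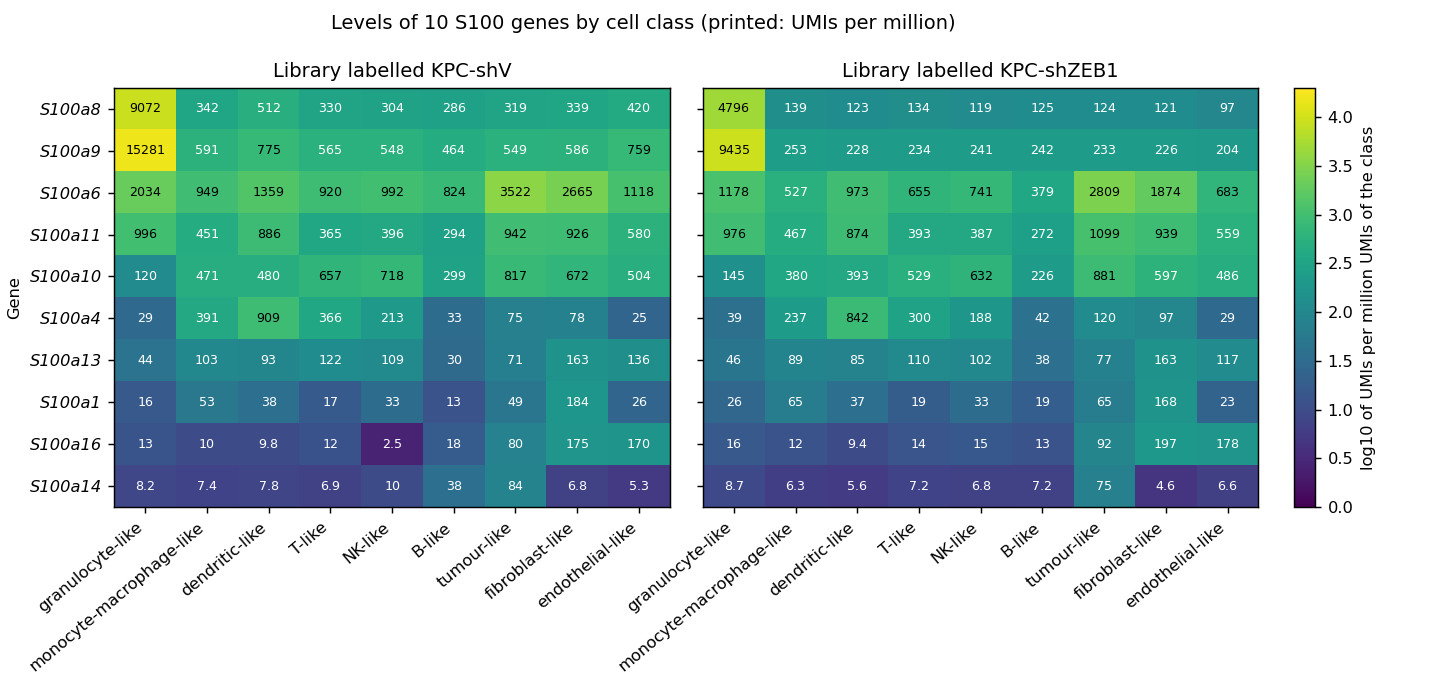
Levels of the 10 S100 genes (rows) in 9 cell classes (columns) of each library; color is the log10 level and the printed values are levels on the linear scale, both in CPM. S100a8 and S100a9 stand out in granulocyte-like cells (9072 and 15281 in the KPC-shV library) and S100a6 in tumor-like and fibroblast-like cells. Among these pooled classes S100a4 is highest in dendritic-like cells.

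Within granulocyte-like cells, S100a8, S100a9 and S100a6 were lower in the KPC-shZEB1 library. The ratio was 0.529 (0.524–0.533) for S100a8, 0.617 (0.613–0.621) for S100a9 and 0.579 (0.569–0.590) for S100a6. S100a11 (0.980, 0.959–1.00) and S100a10 (1.21, 1.14–1.29) were within 1.5-fold. Of the 5 members with a mean of at least 50 CPM, 3 were past 1.5-fold, all lower, with a median log2 ratio of -0.70. For comparison, 11.1% of the 2811 genes at that level in these cells were past 1.5-fold in either direction, and the median log2 ratio of all of them was 0.08. The 5 weaker members included S100a1, at 15.8 and 26.5 CPM, a ratio of 1.68 (1.45–1.95), and S100a4, at 29.1 and 39.2 CPM. The summed level of the 8 granulocyte markers in these cells was 15170 and 14377 CPM and the median depth 3147 and 2908 UMIs per cell, and the part of depth in the S100 differences was not tested.

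S100a8 and S100a9 were lower at the middle and at both ends of the distribution over cells. The median granulocyte-like cell held 5.15 and 1.75 S100a8 UMIs per 1000 of its UMIs, the 10th percentile was 0.391 and 0, and the 90th percentile was 21.8 and 12.5. For S100a9 the medians were 8.74 and 4.07, and the 90th percentiles 36.1 and 24.7. The 10% of cells with the most S100a8 held 41.8% and 50.5% of its UMIs. At least 1 UMI of both genes was seen in 92.5% and 76.3% of granulocyte-like cells, and neither gene in 0.830% and 6.07%. Across cells the log2 levels of the pair had a Pearson r of 0.81 and 0.80 (6865 and 4319 cells, which share a library and vary in depth), given as a description.

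S100a8 and S100a9 also differed among the 6 granulocyte-like clusters, and in each cluster both were lower in the KPC-shZEB1 library. The clusters were defined without S100 genes. S100a8 was highest in the cluster led by Rdh12, Cxcr2 and Retnlg (12608 and 7271 CPM) and lowest in that led by Gbp5 (4243 and 2228 CPM), with the Siglecf-led cluster next to lowest (4653 and 3373 CPM). S100a9 followed the same order at both ends, with 21785 and 15109 CPM in the first, 7164 and 4734 CPM in the Gbp5-led and 8685 and 6082 CPM in the Siglecf-led cluster. The Prok2-led, Ifit1-led and Car4-led clusters lay between, at 7948 to 8411 CPM and 4941 to 5875 CPM of S100a8. The ratio within a cluster ran from 0.525 to 0.725 for S100a8, from 0.661 to 0.810 for S100a9 and from 0.649 to 0.774 for S100a6.

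The cluster make-up differed between the libraries as well. The Siglecf-led and Gbp5-led clusters, low in S100a8, held 8.46% and 3.28% of granulocyte-like cells in the KPC-shV library and 28.4% and 15.2% in the KPC-shZEB1 library. The Prok2-led cluster held 36.6% and 16.4%. When the clusters of the KPC-shZEB1 library were weighted as in the KPC-shV library, the ratio was 0.619 for S100a8, 0.720 for S100a9 and 0.677 for S100a6. At equal cluster shares S100a8 alone of the 3 remained past 1.5-fold. The number of S100a9 UMIs per S100a8 UMI was 1.68 and 1.97 over all granulocyte-like cells and was higher in the KPC-shZEB1 library in 5 of the 6 clusters, all but the Siglecf-led one (1.87 and 1.80).

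**Figure D2:**
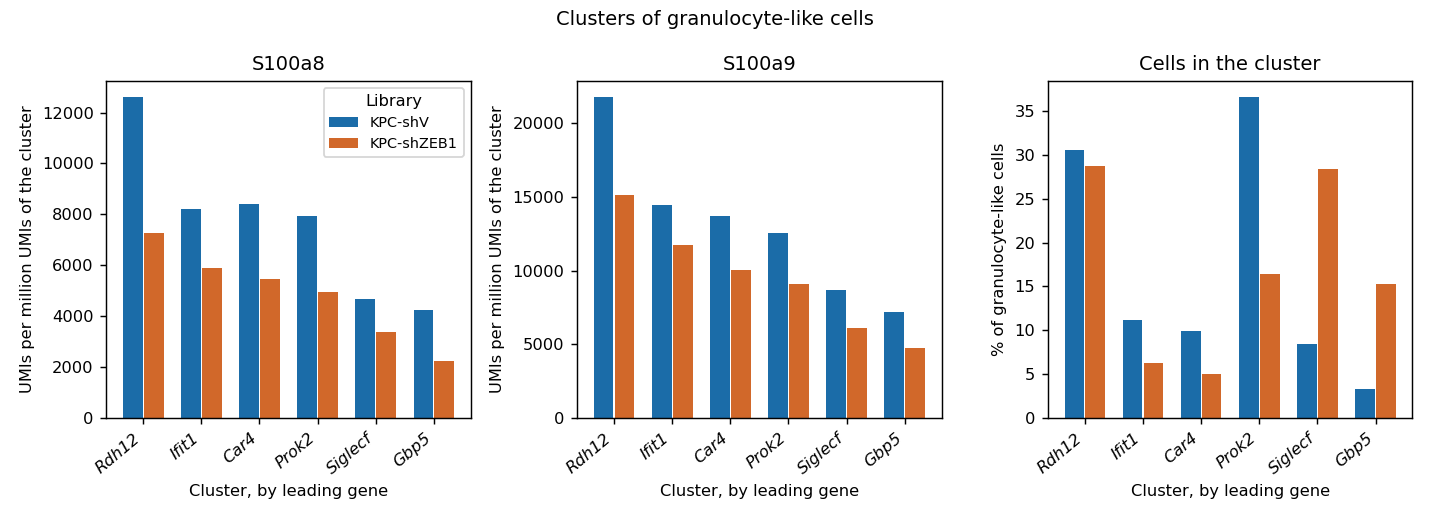
S100a8 and S100a9 (CPM of the cluster) and the share of granulocyte-like cells in 6 clusters named by their leading gene, for the KPC-shV (blue) and KPC-shZEB1 (orange) libraries. Both genes were lower in the KPC-shZEB1 library in all 6 clusters, and the Siglecf-led cluster held 8.46% and 28.4% of the cells.

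Outside granulocyte-like cells S100a8 and S100a9 were present in every class at a few percent of their granulocyte-like level. S100a8 in the other 8 classes was between 3.15% and 5.65% of its granulocyte-like level in the KPC-shV library and between 2.03% and 2.89% in the KPC-shZEB1 library. The median of 8 granulocyte marker genes, measured the same way, ran from 3.49% to 5.50% and from 2.17% to 5.12% over those classes. S100a8 was at or under the marker median in 6 and 7 of the 8 classes. Some of the markers are also expressed in other myeloid cells, since the highest reached 45.3% and 53.5% in dendritic-like and 19.5% and 16.6% in monocyte-macrophage-like cells, so the median is a weaker guide there. S100a9 gave the same counts. The number of S100a9 UMIs per S100a8 UMI was 1.51 to 1.81 in these classes of the KPC-shV library and 1.74 to 2.10 in the KPC-shZEB1 library, around the granulocyte-like values of 1.68 and 1.97 in the same libraries.

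S100a8 was seen in 94.6% and 80.8% of granulocyte-like cells (median 3147 and 2908 UMIs per cell) and in 63.9% and 35.5% of B-like cells (median 3736 and 3418), a class that should lack it. At an equal depth of 1000 UMIs per cell the shares were 84.8% and 66.2% against 23.7% and 10.8%. Monocyte-macrophage-like cells at that depth were at 25.8% and 12.1%, tumor-like cells at 25.3% and 13.6% and fibroblast-like cells at 24.9% and 10.2%. With the background RNA of each library subtracted, S100a8 and S100a9 were at 0 in both libraries in 6 of the 8 classes. How much of their level there was background was not tested. In the KPC-shV library 95.8 CPM of S100a8 and 50.3 CPM of S100a9 remained in dendritic-like cells, and 57.4 and 157 CPM in endothelial-like cells, against 0 in the KPC-shZEB1 library. The library ratios over the 8 classes (0.232 to 0.435 for S100a8 and 0.269 to 0.523 for S100a9) are not read as differences within those cells. The monocyte-like cluster led by Chil3 and Ccr2, a cell type in which both genes are commonly reported, held 355 and 166 CPM of S100a8, against 342 and 132 CPM in macrophages led by Mmp12. The fullest monocyte-macrophage-like cell held 241 and 94 S100a8 UMIs, against medians of 3 and 1. Across the cells of this class the log2 levels of S100a8 and S100a9 had a Pearson r of 0.34 and 0.24. Whether all of their signal in this class is background was not tested.

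**Figure D3:**
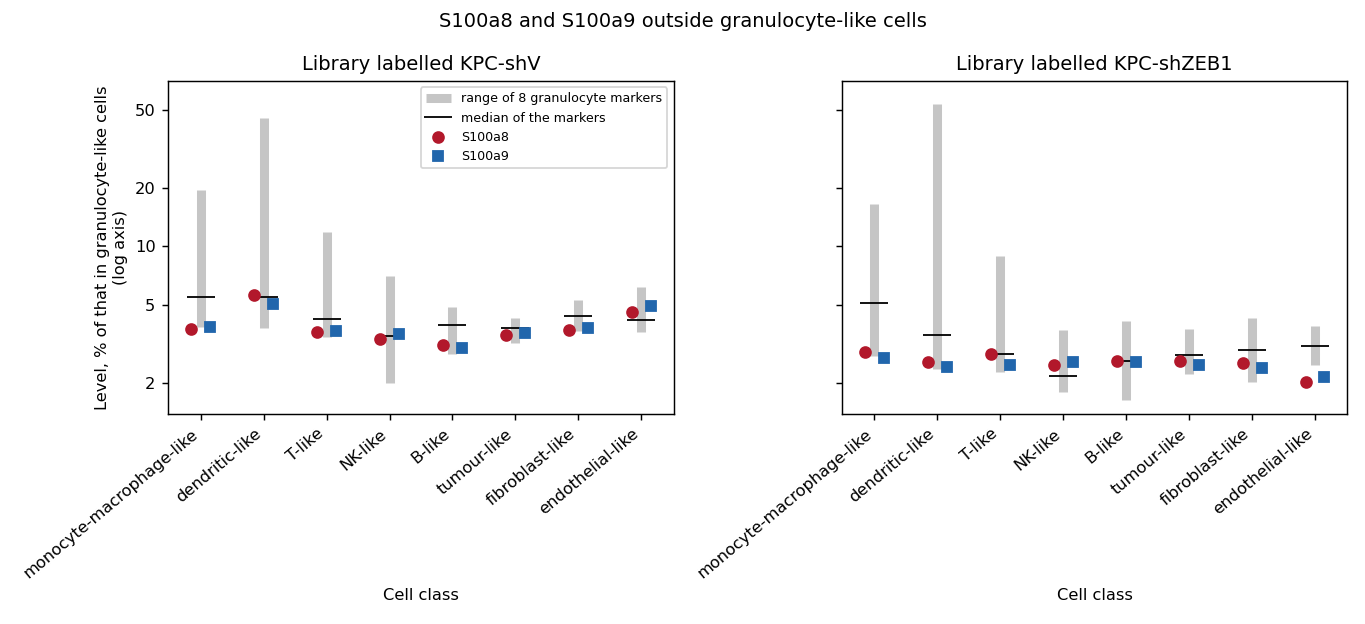
Level of S100a8 (circles) and S100a9 (squares) in 8 non-granulocyte classes as a percentage of the granulocyte-like level of the same library (log axis), with the range (grey bar) and median (dash) of 8 granulocyte marker genes. S100a8 lies between 2.03% and 5.65% in these classes, at or under the marker median in 6 (KPC-shV) and 7 (KPC-shZEB1) of them.

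In monocyte-macrophage-like cells, 4 of the 8 members with at least 50 CPM were past 1.5-fold, all lower, where 1.92% of 3338 genes were past it. S100a8 (ratio 0.405) and S100a9 (0.428) were among them, and both were at 0 with background RNA subtracted. Of the 6 other members 2 were past it, S100a6 (949 and 527 CPM, ratio 0.556, 0.545–0.566) and S100a4 (391 and 237 CPM, ratio 0.605, 0.588–0.623). S100a10 (471 and 379.5 CPM, ratio 0.805) and S100a13 (103 and 88.6 CPM, 0.861) were slightly lower and S100a11 (451 and 467 CPM, 1.03) and S100a1 (52.6 and 64.7 CPM, 1.23) slightly higher. S100a4, S100a6 and S100a10 were highest at the monocyte end of the class. The cluster led by Chil3 and Ccr2 had 1061 and 829 CPM of S100a4, against 174 and 152 CPM in the Mmp12-led and 60.6 and 65.9 CPM in the Fcna-led and Lyve1-expressing cluster. It also had the most S100a6 (1875 and 1106 CPM, against 654 and 453, and 479 and 339) and S100a10 (899 and 759.9 CPM, against 318 and 318, and 286 and 287), whereas S100a1 was highest in the Mmp12-led cluster (59.1 and 70.9 CPM, against 49.6 and 58.3 CPM in the Chil3-led one). This cluster held 511 of 1622 cells in the KPC-shV library and 500 of 2518 in the KPC-shZEB1 library. At equal cluster shares the S100a4 ratio was 0.813, inside 1.5-fold, and the ratio within clusters ran from 0.781 to 1.09. S100a6 was at 0.638 at equal cluster shares and lower in each of the 3 clusters (0.590 to 0.708).

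In tumor-like cells all 10 members had at least 50 CPM. S100a4 was past 1.5-fold and higher in the KPC-shZEB1 library (75.4 and 120.2 CPM, ratio 1.59, 1.52–1.67). S100a8 and S100a9 were past it and lower, and both were at 0 with background RNA subtracted. For comparison, 3.35% of 3945 genes were past it in these cells. The other 7 lay between 0.798 for S100a6 (0.791–0.804) and 1.31 for S100a1 (49.3 and 64.8 CPM). S100a11 was at 1.17 (1.15–1.18), S100a16 at 1.14, S100a13 and S100a10 at 1.08 and S100a14 at 0.887 (0.841–0.935). Of the 10 members 6 had a ratio above 1, and the median log2 ratio was 0.11 against -0.01 for all genes tested.

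The tumor-like clusters differed widely in S100a14, S100a6 and S100a4. The epithelial cluster led by Lypd8, Lama3 and Epcam (327 and 394 cells) had 277 and 211 CPM of S100a14, against 7.84 and 8.69 CPM in the cluster led by Cntn5 and Prg4 (834 and 492 cells) and 6.83 and 7.12 CPM in the one led by Ralyl (9 and 224 cells). S100a6 showed the same division, with 5730.4 and 4153 CPM in the epithelial, 2592 and 2341 CPM in the Cntn5-led and 2977 and 1709.6 CPM in the Ralyl-led cluster. S100a16 followed, at 179.6 and 169.9 CPM in the epithelial against 40.2 and 57.8 CPM in the Cntn5-led cluster. S100a4 had another order. It was highest in the Ralyl-led cluster, at 325 (263–397) and 260.4 (249–273) CPM, and next in a cluster led by Dbf4, at 212 and 197 CPM, with 67.2 and 61.6 CPM in the epithelial and 70.1 and 92.1 CPM in the Cntn5-led cluster. The Ralyl-led cluster came almost wholly from the KPC-shZEB1 library. Without it the S100a4 ratio was 1.14, and 1 of the 5 clusters, the Cntn5-led one, had a ratio above 1. The Dbf4-led cluster (312 and 315 cells) had a median of 2190 UMIs per cell and the highest S100a6, at 6035 and 4622 CPM. It also held 172 and 143 CPM of S100a14, which is among its leading genes, and 105 and 111 CPM of S100a16. S100a6 was lower in the KPC-shZEB1 library in all 5 clusters, by a ratio of 0.555 to 0.903.

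The tumor-like values depended on where the class ended. In several other clusterings a large part of the Cntn5-led cells was named fibroblast-like. Without that cluster the ratio of S100a6 in tumor-like cells was 0.567 and that of S100a14 was 0.495. Within clusters the S100a14 ratio was 0.762 (0.720–0.807) in the Lypd8-led and 0.833 (0.670–1.03) in the Dbf4-led cluster. S100a14 also turned direction, to 1.09 without the Ralyl-led cluster and to 1.10 with looser cell filters.

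**Figure D4:**
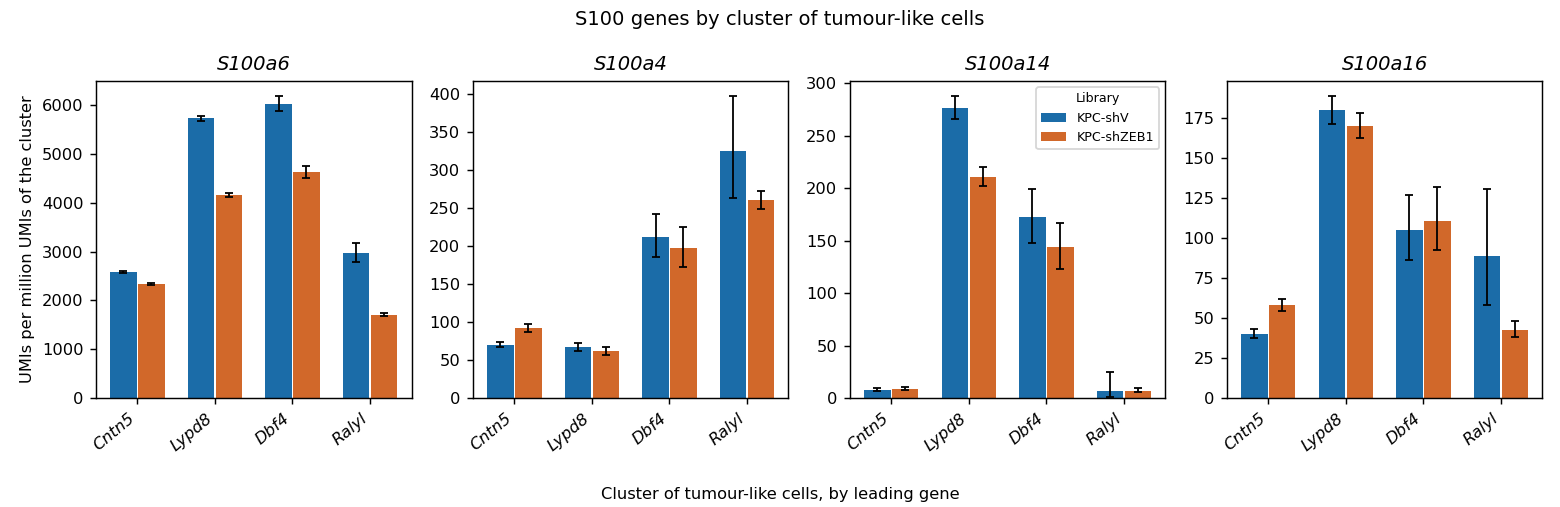
S100a6, S100a4, S100a14 and S100a16 (CPM of the cluster; bars, exact 95% Poisson intervals) in the 4 tumor-like clusters with at least 100 cells over both libraries, for the KPC-shV (blue) and KPC-shZEB1 (orange) libraries. S100a14 is at 277 and 211 in the Lypd8-led epithelial cluster and under 9 in the Cntn5-led and Ralyl-led clusters, while S100a4 is highest in the Ralyl-led cluster.

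In the remaining classes S100a8 and S100a9 were past 1.5-fold and lower, with the limits given above, and few other members were past it. In fibroblast-like cells these were the only 2 of 9 members past 1.5-fold (background 3.95% of genes), and S100a6 was at 2665 and 1874 CPM, a ratio of 0.703 (0.691–0.716). Dendritic-like cells (104 and 305 cells, background 4.76%) had 2 of 7, T-like cells (367 and 1216 cells, 2.15%) 2 of 7 and NK-like cells (57 and 173 cells, 11.5%) 2 of 7, the same pair in each. S100a6 was at 0.716, 0.712 and 0.747 in these 3 classes. Endothelial-like cells (148 and 82 cells, background 6.47%) had 3 of 7, with S100a6 at 1118 and 683 CPM, a ratio of 0.611 (0.572–0.653). B-like cells (291 and 1226 cells, background 3.42%) had 3 of 5, with S100a6 at 0.460, but there the 10% of cells with the most S100a6 held 65.6% of its UMIs in the KPC-shV library and 1 cell held 307. The median B-like cell was at 0.348 and 0.302 S100a6 UMIs per 1000, and the ratio was 0.823 when the highest 8% of doublet scores were removed and 0.864 when S100 and partner genes entered the clustering. S100a6 was lower in the KPC-shZEB1 library in all 9 classes, and over all kept cells it was at 2276 and 1416 CPM. After subtraction of the background RNA estimated in each library it was still lower in all 9, at ratios from 0.197 to 0.827. S100a11 was between 0.924 and 1.17 in all 9 classes.

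**Figure D5:**
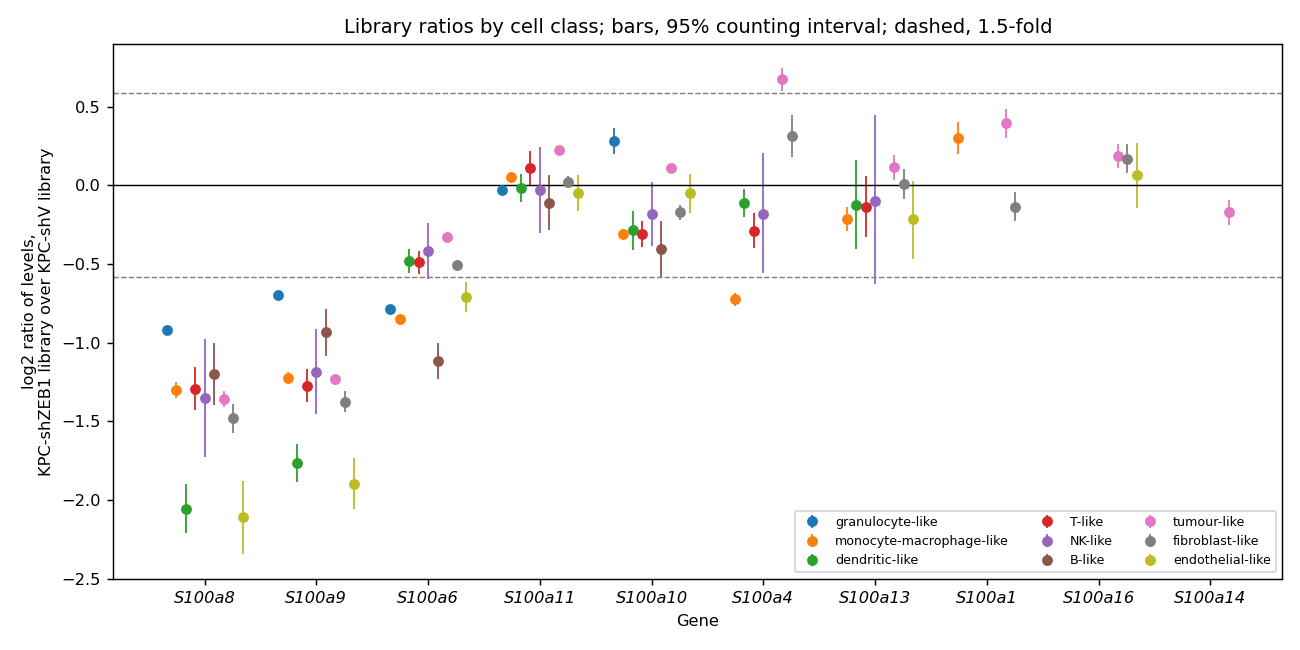
The log2 ratio of levels (KPC-shZEB1 over KPC-shV library) for each S100 gene and cell class with a mean of at least 50 CPM; bars are 95% intervals for counting error and dashed lines mark 1.5-fold. S100a8, S100a9 and S100a6 are below 0 in every class shown and S100a11 lies near 0. As pooled classes, S100a4 is lower in monocyte-macrophage-like cells (0.605) and higher in tumor-like cells (1.59), where 1 of 5 clusters had a ratio above 1.

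Most receptors, partners and regulators of these proteins were within 1.5-fold. Of the receptors of extracellular S100 proteins, Tlr4 was highest in granulocyte-like cells (695 and 623 CPM), as were Cd33 (323 and 291 CPM) and Alcam (2051 and 1719 CPM), whereas Ager, the gene of RAGE, was at 1.78 CPM or less in each class. Bsg, which encodes the S100A9 receptor basigin, was the only 1 of 5 measured receptors past 1.5-fold in granulocyte-like cells (376 and 249 CPM), where 11.1% of all genes were. Alcam in endothelial-like cells (370 and 192 CPM) was the other receptor past it. In tumor-like cells, where 3.35% of all genes were past it, 0 of 3 receptors and 0 of 9 intracellular partners were, and elsewhere the partners past it were Ahnak in granulocyte-like (82.7 and 137 CPM) and B-like cells (81.6 and 134 CPM) and Anxa1 in NK-like cells (66.0 and 103 CPM), all higher. The median log2 ratio in granulocyte-like cells was -0.21 for the receptors, 0.13 for the partners and -0.02 for the regulators. Anxa2, the partner of S100a10, was highest in tumor-like cells (936 and 968 CPM), the class with the most S100a10, but was also at 427 and 371 CPM in granulocyte-like cells, the class with the least. Myh9, the myosin that S100A4 binds, was at 365 and 476 CPM in granulocyte-like and 497 and 594 CPM in dendritic-like cells. Of the 5 measured regulators of S100a8 and S100a9 in granulocyte-like cells 0 were past 1.5-fold (all genes, 11.1%), with Cebpb at 2867 and 2535 CPM, Spi1 at 331 and 327 CPM and Stat3 at 441 and 455 CPM. In tumor-like cells (all genes, 3.35%) 1 of 4 was, Cebpd at 182 and 103 CPM. Cebpb there was just inside the limit, at 454 and 303 CPM, and the median log2 ratio of the 4 was -0.50.

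The 7 other S100 genes were scarce, with at most 7.51 CPM in any compared class. S100g, a calcium-binding gene known from intestine, was the highest of them, with 261 and 244 UMIs in tumor-like cells (7.51 and 7.07 CPM). S100b reached 82 and 80 UMIs (2.36 and 2.32 CPM) in the same cells, and S100z had 5 and 4.

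Over 18 points (9 classes in 2 libraries, where points of a library share its depth and background RNA), the log2 levels of S100a8 and S100a9 had a Pearson r of 0.998, and the next closest pair of members was S100a6 and S100a11 at 0.81. S100a8 and S100a10 had an r of -0.67. Among 7047 other genes with at least 50 CPM in some class, those most like S100a8 were Stfa2l1 (0.99), Cstdc4 (0.99) and Retnlg (0.99), genes of neutrophils, and those most like S100a16 were Ghr, Parva and Lamb2 (0.98 each). Wfdc2 (0.90) and Krt18 (0.89) were among the 3 genes most like S100a14. S100a4 was most like Snhg15 (0.92), Trerf1 (0.91) and Prelid2 (0.90), and S100a10 like Ech1 (0.95), Ndufa4 (0.95) and Tmsb10 (0.93). S100a9 was most like Stfa2l1, Cstdc4 and Il1f9 (0.99 each), S100a13 like Sec24d (0.91), S100a1 like Slc39a14 (0.94), S100a11 like Macrod2 (0.90) and S100a6 like Glis3 (0.87). These correlations are descriptions of 18 points.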

How the data were processed

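Tumor pieces were dissociated and processed with the 10x Genomics 3′ v3.1 kit. Per the labels, the authors ran Cell Ranger 7.0.1 with the mm10 build and deposited filtered UMI counts per gene and barcode (whole numbers, not normalized); intron counting is not given in the sources used here. From these counts, barcodes were dropped below 500 genes or 1000 UMIs, above 60000 UMIs or above 15% mitochondrial UMIs, doublets with a Scrublet score above 0.2 were removed (315 and 343; scanpy 1.11.5), and cells were clustered on 30 principal components of 3000 variable genes without the S100 genes, their partners, receptors and regulators (20 neighbors, Leiden resolution 1, leidenalg 0.10.2). Clusters were named X-like from marker lists. Counts were summed per class and library and scaled to 1000000 UMIs. A class needed 50 cells in both libraries; acinar-like, pericyte-like, plasmacytoid dendritic-like and unnamed cells were not compared. No test was run because each group has 1 library. A gene counted as past 1.5-fold had a mean of at least 50 CPM. Cells were thinned to 1000 UMIs, which left out 0 cells. Genes were named by rule: the members, the other S100 genes, the receptor, partner and regulator lists, the 3 genes most alike each member and the leading genes of clusters. A few items under this rule are not reported here. Members and lists were chosen with earlier results of these data known. Ratios and intervals were tested on simulated counts. Alternatives covered cell filters, doublets, clustering, the mean over cells, background RNA, centering and the fold.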

Additional observations from a re-analysis of the deposited data

Results flagged for a closer look

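The S100a4 ratio (KPC-shZEB1 over KPC-shV) of the pooled class was 1.59 in tumor-like cells and 0.605 in monocyte-macrophage-like cells. Within clusters it was above 1 in 1 of 5 tumor-like clusters, the Cntn5-led one (range 0.802 to 1.32). It was above 1 in 1 of 3 monocyte-macrophage-like clusters (0.781 to 1.09). The difference was not tested, since each group has 1 library, and both class ratios were nearer to 1 at equal cluster shares (1.17 and 0.813).

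A cluster outside the comparisons, named acinar-like from pancreatic enzyme genes and led by Pnliprp1, held 21 cells of the KPC-shV and 288 of the KPC-shZEB1 library. Its S100a9 level was 2854 and 7916 CPM, a ratio of 2.77 (2.52–3.06), and its S100a11 level was 273 and 989 CPM, a ratio of 3.63 (2.67–5.04). S100a8 was at 2498 and 3779 CPM, and in the KPC-shZEB1 library this cluster held 4.58% of all S100a8 UMIs. The part of granulocyte RNA in these cells was not tested.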

How the results depend on the processing

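Each group had 1 library, so no result has a replicate check, and the ranges here cover processing only. No paired analysis was possible because each group has 1 library and no test was run. The S100a8 ratio in granulocyte-like cells (0.529) was 0.518 as a mean over cells, 0.567 with background RNA subtracted and 0.498 relative to the median ratio of the class. The S100a9 ratio there (0.617) was 0.622 with no doublet removal, 0.623 with each library clustered alone, 0.662 with background RNA subtracted and 0.582 relative to the median ratio. With a 2-fold limit, the S100a8, S100a9 and S100a6 ratios in granulocyte-like cells were inside it. In monocyte-macrophage-like cells S100a8 (0.405) and S100a9 (0.428) were past it, and both were at 0 with background RNA subtracted. With background RNA subtracted, S100a4 (0.555) and S100a6 (0.377) were past 1.5-fold in that class. In tumor-like cells S100a4 was past 1.5-fold in 8 of 12 settings, and S100a6 and S100a14 in 5 of 12 each. The setting without the Cntn5-led cluster was an alternative chosen after seeing the data. The S100a4 ratio in tumor-like cells ran from 1.09 with looser cell filters to 1.83 with background RNA subtracted. By class, the share of all genes past 1.5-fold ran from 1.92% in monocyte-macrophage-like to 11.5% in NK-like cells. Shares of all genes at the other limits and settings are not given here. Of 65 ratios of a member in a class, 24 were past 1.5-fold, but 16 of these are S100a8 and S100a9 outside granulocyte-like cells, which are not read as differences and have no ratio with background RNA subtracted. Of the other 8, all kept their direction and 5 stayed past 1.5-fold in every setting run. Weighting to equal cluster shares was not among these settings. At equal shares S100a9 (0.720) and S100a6 (0.677) in granulocyte-like cells and S100a4 (0.813) in monocyte-macrophage-like cells were inside 1.5-fold. Another 9 ratios were past it in at least 1 setting, such as S100a16 in fibroblast-like cells, at 2.20 with each library clustered alone. The cause of these shifts was not tested.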

Other observations

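Barcodes above 60000 UMIs, 289 in the KPC-shV and 217 in the KPC-shZEB1 library, were outside the comparisons. They held the most S100a6 of any group described here other than single tumor-like clusters, at 4560 and 3394 CPM, a ratio of 0.744 (0.737–0.752), and S100a14 at 118 and 122 CPM (1.03, 0.978–1.09). S100a8 was at 260 and 109 CPM in them.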
